A study of Mus musculus with 26 samples.

Results

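The genes described here are 10 effectors of the integrated stress response measured in the dorsal root ganglia (DRG) of mice, which hold the cell bodies of the sensory neurons that serve the trunk and limbs. They were chosen by name, with earlier results of these data known. The 10 genes were *Atf4*, *Atf5*, *Ddit3*, *Trib3*, *Chac1*, *Sesn2*, *Ddit4*, *Ppp1r15a*, *Eif2ak3* and *Nupr1*, and were looked up by symbol among the 55401 Ensembl genes of the deposited tables. All 10 were found, under 11 identifiers. *Ddit3* had 2 identifiers, of which the one spanning the whole gene was used; the other lies inside it and held 10.14% as many counts. Every gene had counts in all 26 libraries, with a lowest count of 90 in any library (*Trib3*), and all 10 passed the filter on low counts in every fit.

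In the integrated stress response, kinases that sense different stresses phosphorylate the translation initiation factor eIF2. This lowers most protein synthesis and raises translation of a few messages with upstream reading frames, among them those of the transcription factors ATF4 and ATF5. ATF4 acts with partner factors on genes for amino acid supply, redox balance, control of growth signalling and feedback. In sensory neurons the pathway is known for its part in the response to axon injury, and mRNA levels alone do not show whether eIF2 was phosphorylated.

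The study compared mice whose aryl hydrocarbon receptor gene (*Ahr*) was to be deleted in neurons with controls. The conditional knockout (cKO) mice were Ahr f/f Thy1-CRE(ERT2/EYFP), carrying a tamoxifen-dependent Cre and a fluorescent reporter under the *Thy1* promoter, which drives expression in a part of the neurons and not in the glia. Controls carried no Cre: of the 3 naive and of the 3 injured controls, 2 were Ahr fl/+ and 1 was Ahr fl/fl. The controls for cultured neurons were 3 Ahr fl/fl mice, and those for sham surgery were 1 Ahr f/+ and 1 Ahr fl/fl mouse. The naive and injured mice of both genotypes received 100 mg/kg tamoxifen daily for 5 days at 28 weeks of age, and ganglia were taken 5 weeks later. Injured mice had a sciatic nerve crush 1 day before collection. There were 3 mice per genotype in the naive and in the injured state. The sham ganglia came from the operated and the other side of 2 mice per genotype, 1 day after surgery. The cultures were semi-purified DRG neurons 24 hours after seeding, 3 per genotype. For the sham and culture mice, age and tamoxifen are not given in the labels. Ganglia were dissociated at zeitgeber time 2 to 4.

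A library held 20169388 to 23540375 counts among naive and injured ganglia, from 25299938 to 88180611 in the neurons and from 39306414 to 58751270 in the sham ganglia. Levels are given as CPM, counts scaled to the library's total after TMM adjustment, and the values of a group follow replicates 1, 2 and 3. *Ahr* itself did not separate the genotypes in naive ganglia (22.2 ± 2.87 CPM in controls and 25.0 ± 2.80 in cKO, SD, n = 3), whereas *Thy1*, whose promoter drives the transgene, did (742 ± 56.5 and 1350 ± 86.5 CPM). After crush *Ahr* was 36.2 to 38.7 CPM in controls and 38.8 to 40.5 CPM in cKO, narrowly apart with the cKO higher. Its sham and neuron groups overlapped between genotypes. In 2 of 26 libraries the sex-linked transcripts went against the labelled sex: injured control 3 was labelled male and read as female, and injured cKO 2 was labelled female and read as male. *Thy1* in the injured libraries was 757 to 804 CPM in controls and 1241 to 1458 CPM in cKO, and both of these libraries lay with their labelled genotype. Read from transcripts, the naive, injured control and cultured neuron libraries were female, injured cKO 1 was female, injured cKO 2 and 3 were male, and the sham libraries were male. In the injured cKO group sex and mouse therefore vary together, and the main results that rest on it are also given with sex as a covariate.

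ATF4 is known to bind the C/EBP-ATF response element, whose core can be written TGATGNAA (TTNCATCA on the other strand). Promoters of all 10 genes, 11 sequences of 300 bases from 250 before to 50 after a RefSeq transcript start (GRCm38.p6), were searched for it on both strands. It was found at *Chac1*, *Trib3* and *Nupr1*, 3 of 10 genes, and in 4.51% of the 27025 genes with a promoter in the same table. These 3 are shown because *Chac1* and *Trib3* rose after crush, whereas *Nupr1*, with the same letters as *Chac1*, did not pass the test there. Capitals mark the match, which lies 193 bases before the start at *Chac1* (chr2:119350992-119351291, plus strand), just after the start at *Trib3* (chr2:152344011-152344310, minus strand) and 110 bases before it at *Nupr1* (chr7:126625421-126625720, minus strand). A match describes letters in the window, and binding was not measured.
Chac1: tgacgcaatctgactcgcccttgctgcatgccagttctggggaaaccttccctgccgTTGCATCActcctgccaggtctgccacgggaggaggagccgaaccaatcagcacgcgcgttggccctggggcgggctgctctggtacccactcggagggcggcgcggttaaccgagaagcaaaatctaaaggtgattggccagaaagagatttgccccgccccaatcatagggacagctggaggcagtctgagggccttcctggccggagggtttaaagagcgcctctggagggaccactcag
Trib3: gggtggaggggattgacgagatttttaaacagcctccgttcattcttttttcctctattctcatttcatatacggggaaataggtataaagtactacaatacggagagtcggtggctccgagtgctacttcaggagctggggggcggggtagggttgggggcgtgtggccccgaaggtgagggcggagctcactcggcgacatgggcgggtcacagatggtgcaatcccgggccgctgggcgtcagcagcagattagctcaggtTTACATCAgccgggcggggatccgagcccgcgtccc
Nupr1: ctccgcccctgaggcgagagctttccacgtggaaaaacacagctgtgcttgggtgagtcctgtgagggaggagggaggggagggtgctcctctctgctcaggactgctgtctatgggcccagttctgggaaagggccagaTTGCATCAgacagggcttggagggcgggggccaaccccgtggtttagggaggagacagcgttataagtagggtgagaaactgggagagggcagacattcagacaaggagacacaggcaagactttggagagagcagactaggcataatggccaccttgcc

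To set levels of different genes side by side, counts must be scaled by length, and the deposited FPKM divide by the span of the gene with its introns. On that scale *Atf4* was the highest of the 10 in naive control ganglia (87.2 ± 7.95 FPKM, SD, n = 3), followed by *Ddit4* (43.7 ± 12.4). *Sesn2* (0.51 FPKM) and *Trib3* (0.71) were the lowest. In control neuron cultures *Atf4* was again the highest at 245 FPKM, and *Ppp1r15a*, at 16.4 FPKM in naive ganglia, stood second at 126. These values understate genes with long introns, such as *Eif2ak3*.

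Among the 10 groups the widest range of mean CPM was that of *Sesn2*, 15.6-fold from the lowest to the highest group, and then of *Chac1* (14.1-fold), *Ppp1r15a* (9.02-fold) and *Trib3* (7.90-fold). *Ddit4* had the narrowest, 1.67-fold. The highest 2 group means were those of the cultured neurons for all genes but *Ddit4*, and the next 2 those of the crushed ganglia for all but *Ddit4*, *Nupr1* and *Atf5*. For *Atf5*, 8 of the 9 pairs of groups next to each other in order overlapped, and the crushed groups mixed with the sham groups. For *Chac1*, *Sesn2* and *Ppp1r15a*, 5 of the 9 neighbouring pairs overlapped.

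**Figure D1:**
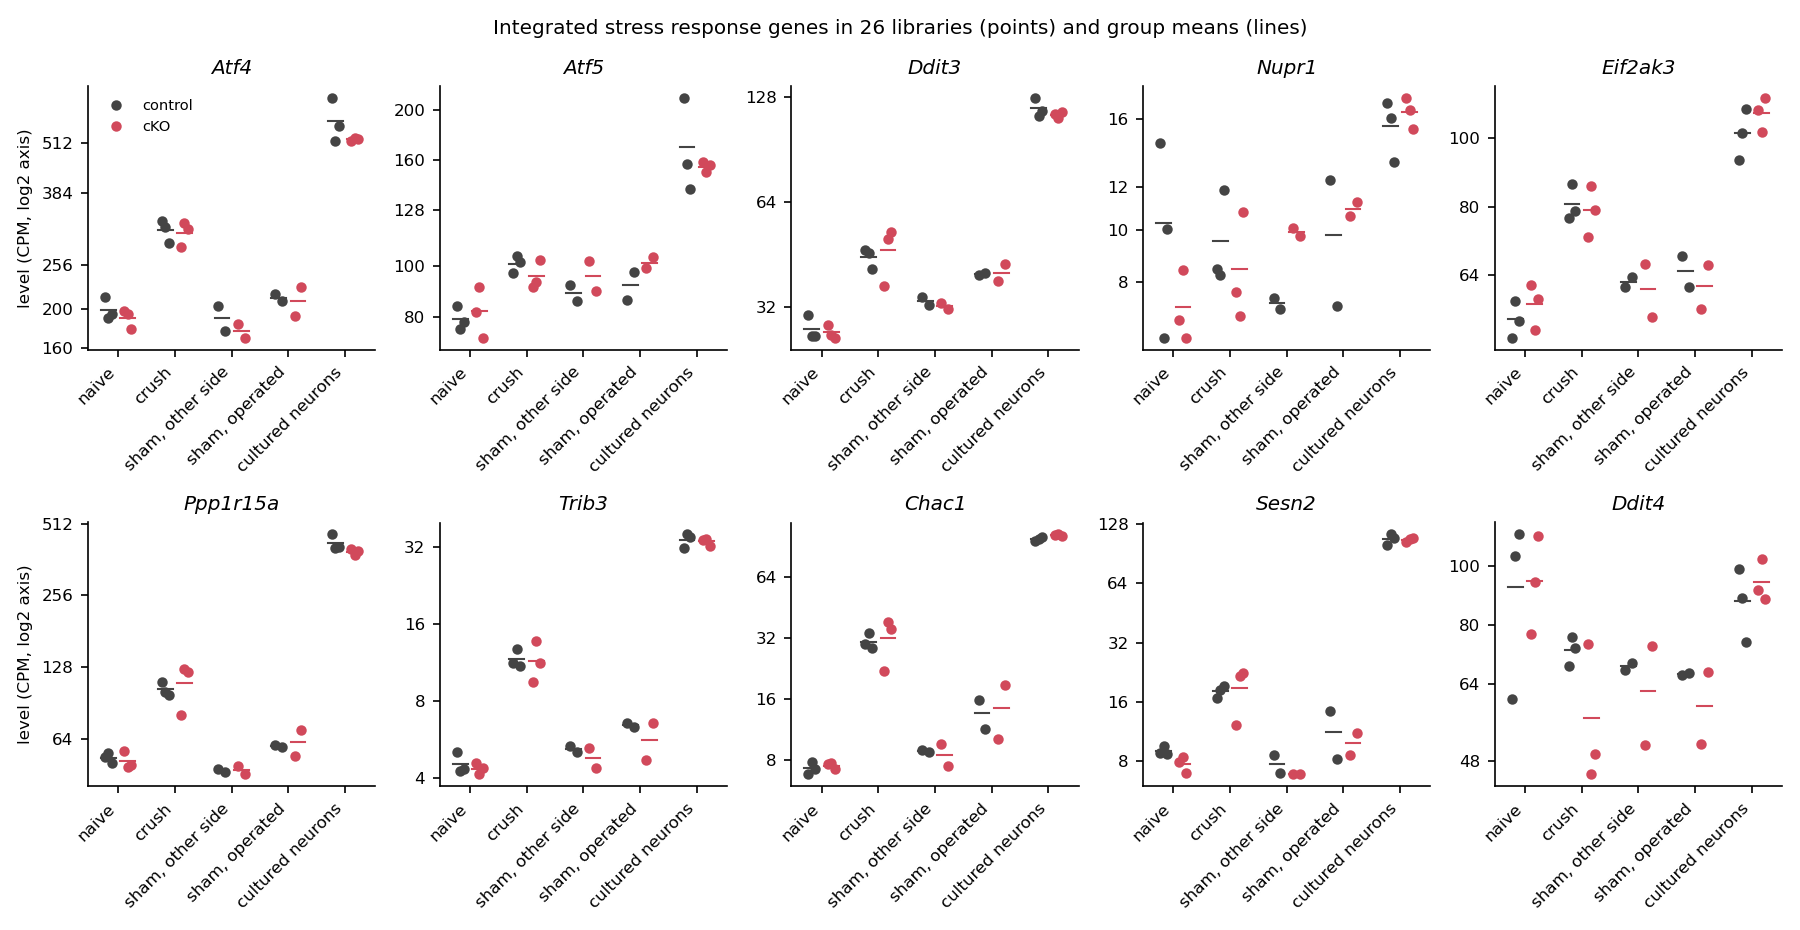
Level of each gene in CPM on a log2 axis, with 1 point per library and a line at the group mean, for control (grey) and cKO (red) in naive ganglia, crushed ganglia, both sides after sham surgery and cultured neurons. *Chac1* went from 6.79 to 7.81 CPM in naive controls to 28.6 to 33.7 after crush and 96.7 to 101 in cultured control neurons, whereas *Ddit4* spread from 60.5 to 113 CPM within the naive controls.

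Nerve crush raised 8 of the 10 genes in control mice and lowered none. Across all 21261 genes tested in that comparison 21.6% were called, and 12.9% were called higher. As the 10 genes were chosen with earlier results known, such shares stand beside the counts as description and not as a test. A gene is called here when its adjusted p is under 0.05 in edgeR's quasi-likelihood test with Benjamini-Hochberg adjustment over all genes. The median log2 fold change of the 10 was 0.66, against -0.02 over all genes tested. Of the 8, 3 rose at least 2-fold, which 2.26% of all genes did. The naive and crushed libraries of the same 8 genes did not overlap, nor did those of 38.1% of all genes. In these bulk ganglia, a change in the number of cells of a type and a change in RNA per cell cannot be told apart.

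The 4 transcription factors differed among themselves. *Atf4* (ENSMUSG00000042406.8, chr15:80255184-80257541, plus strand), the central factor of the response, stood at 213, 190.2 and 194 CPM in naive controls and at 328, 317 and 289.6 CPM after crush. The groups did not overlap, and the rise was 1.57-fold (log2 fold change 0.65, SE 0.071, adjusted p 6.97e-05). *Ddit3*, which encodes CHOP, a factor tied to prolonged stress and cell death (ENSMUSG00000025408.15, chr10:127290774-127296288, plus strand), went from 30.2, 26.4 and 26.3 CPM to 46.5, 45.5 and 41.1 CPM. Every crushed library was above every naive one, and the log2 fold change was 0.68 (SE 0.116, adjusted p 0.00139). *Atf5* (ENSMUSG00000038539.15, chr7:44812256-44816658, minus strand), a relative of ATF4 under the same translational control, rose least, from 83.9, 75.8 and 78.2 CPM to 96.9, 105 and 102 CPM (log2 fold change 0.35, SE 0.079, adjusted p 0.00772). *Nupr1* (ENSMUSG00000030717.9, chr7:126623249-126630861, minus strand), a small stress-induced chromatin protein, ranged from 6.32 to 14.5 CPM in naive controls and from 8.26 to 11.9 CPM after crush. Its groups overlapped, and the log2 fold change was -0.11 (SE 0.264, adjusted p 0.815).

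The kinase and the phosphatase subunit that act on eIF2 both rose. *Eif2ak3* encodes PERK, the eIF2 kinase of the endoplasmic reticulum (ENSMUSG00000031668.14, chr6:70844515-70905245, plus strand), and stood at 52.3, 59.0 and 55.2 CPM in naive and 77.0, 86.2 and 79.0 CPM in crushed control ganglia. All 3 crushed libraries lay above the naive ones (log2 fold change 0.54, SE 0.077, adjusted p 0.000435). *Ppp1r15a* encodes GADD34, which brings a phosphatase to eIF2 and so feeds back on the response (ENSMUSG00000040435.12, chr7:45522916-45526268, minus strand). It was at 53.6, 55.7 and 50.8 CPM before and at 111, 101 and 98.3 CPM after crush, a 1.94-fold rise (log2 fold change 0.95, SE 0.137, adjusted p 0.00046).

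Of the 4 downstream effectors, 3 rose and gave the largest changes of the 10. *Chac1*, an enzyme that breaks down glutathione (ENSMUSG00000027313.3, chr2:119351229-119354381, plus strand), was at 6.79, 7.81 and 7.23 CPM in naive controls and at 29.7, 33.7 and 28.6 CPM after crush. It rose 4.21-fold (log2 fold change 2.07, SE 0.175, adjusted p 1.11e-05) and stood 155th of the 21261 genes when ordered from the highest fold change. *Trib3*, a pseudokinase that restrains ATF4 and AKT (ENSMUSG00000032715.9, chr2:152337422-152344032, minus strand), went from 5.03, 4.25 and 4.34 CPM to 11.2, 12.8 and 10.9 CPM (log2 fold change 1.36, SE 0.133, adjusted p 2.97e-05). *Sesn2*, a leucine sensor that restrains mTORC1 (ENSMUSG00000028893.8, chr4:132492032-132510501, minus strand), went from 8.85, 9.57 and 8.72 CPM to 16.8, 18.5 and 19.3 CPM (log2 fold change 1.01, SE 0.183, adjusted p 0.00206). For all 3 every crushed library exceeded every naive one. *Ddit4* encodes REDD1, another restraint on mTORC1 (ENSMUSG00000020108.4, chr10:59949669-59951834, minus strand). It stood at 60.5, 104 and 113 CPM in naive and 68.7, 76.4 and 73.3 CPM in crushed controls, with overlapping groups (log2 fold change -0.34, SE 0.226, adjusted p 0.323). The value was -0.57 without naive control 1 and -0.17 without naive control 3.

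In cKO mice crush raised 7 of the 10 genes and lowered *Ddit4*, with 18.6% of all genes called, 10.7% higher and 7.89% lower. Of the 7, 4 rose at least 2-fold, where 2.23% of all genes did, and 9 of the 10 genes had groups without overlap, where 36.1% of all genes did. The median log2 fold change of the 10 was 0.74, against -0.0046 over all genes. *Chac1* rose by 2.09 on the log2 scale (SE 0.175), from 7.62, 7.70 and 7.18 CPM to 21.9, 38.5 and 35.2 CPM. *Trib3* rose by 1.40 (SE 0.134), *Sesn2* by 1.27 (SE 0.185), *Ppp1r15a* by 1.08 (SE 0.138), *Ddit3* by 0.78 (SE 0.116), *Atf4* by 0.69 (SE 0.071) and *Eif2ak3* by 0.44 (SE 0.077). For *Atf5* the log2 fold change was 0.23 (SE 0.079) and the test was not passed (adjusted p 0.0694), although its 3 crushed libraries were above the naive ones. *Nupr1* overlapped between the groups, with a log2 fold change of 0.24 (SE 0.272, adjusted p 0.605).

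*Ddit4* in the cKO ganglia was 77.4, 94.2 and 112 CPM before and 74.6, 45.6 and 49.2 CPM after crush. The groups did not overlap, and it fell by 0.74 on the log2 scale (SE 0.229, edgeR adjusted p 0.0410). The value kept its sign and size without any single library of the 2 groups, from -1.01 to -0.61, but the call rests on single libraries. It was not made without naive cKO 2 (adjusted p 0.0770), naive cKO 3 (0.153), injured cKO 2 (0.152) or injured cKO 3 (0.135), and over all 16 alternatives it was made in 7 and lost in 9. With the sex read from transcripts as a covariate the log2 fold change was -0.34 (adjusted p 0.559). Over the 6 crushed ganglia of both genotypes, *Ddit4* lay between 68.7 and 76.4 CPM in the 4 libraries read as female. It was at 45.6 and 49.2 CPM in the 2 read as male, both cKO. *Chac1*, *Sesn2*, *Ppp1r15a* and *Ddit3* split the other way, with both male libraries above every female one. In female against male libraries, *Chac1* was at 21.9 to 33.7 against 35.2 to 38.5 CPM. *Sesn2* was at 12.3 to 19.3 against 21.6 to 22.3 CPM. *Ppp1r15a* was at 80.6 to 111 against 122 to 126 CPM, and *Ddit3* at 36.6 to 46.5 against 50.1 to 52.5 CPM. *Atf4*, *Atf5*, *Nupr1*, *Eif2ak3* and *Trib3* overlapped.

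Injured cKO 1, the one female library of its group by transcripts, was the lowest of the 3 for *Chac1* (21.9 CPM), *Sesn2* (12.3), *Ppp1r15a* (80.6), *Ddit3* (36.6) and *Trib3* (9.50), and the highest for *Ddit4*. It was also the lowest for *Atf4* (284 CPM), *Atf5* (91.3) and *Eif2ak3* (72.4), though not for *Nupr1*. With sex from transcripts as a covariate the cKO crush response of these genes rests on that library. *Chac1* then rose by 1.54, *Trib3* by 1.13, *Sesn2* by 0.66 and *Ppp1r15a* by 0.63 on the log2 scale, and 6 of the 10 genes were called, all higher, where 6.65% of all genes were called in place of 18.6%. *Ddit3*, at 0.78 without the covariate, was 0.44 at its lowest over all alternatives. *Eif2ak3* was the other gene whose call was lost, at a log2 fold change of 0.31 (adjusted p 0.0912). In control mice, whose crushed and naive libraries all read as female, the same 8 genes were called with this covariate as without it.

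**Figure D2:**
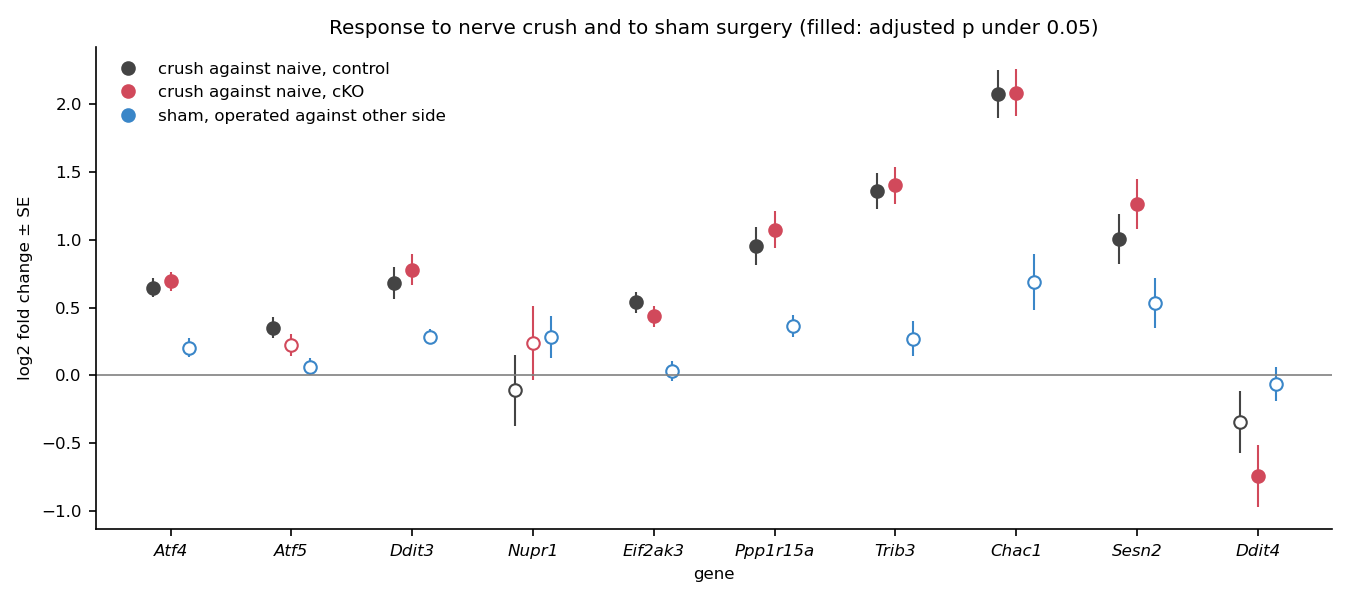
Log2 fold change with its SE for each gene after crush against naive in control (grey) and cKO ganglia (red), and on the operated against the other side after sham surgery (blue), with filled points for an adjusted p under 0.05. *Chac1* is highest in all 3 comparisons (2.07, 2.09 and 0.69), and no sham point is filled.

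Some of these genes share a stretch of the genome with a neighbour on the other strand, and reads there may have been counted for both. *Atf5* overlaps *Nup62* by 571 bases and *Il4i1* by 272, whose counts were 36.94% and 39.56% of its own and which changed by 0.48 and 0.41 on the log2 scale after crush in controls, close to the 0.35 of *Atf5*. *Ddit3* overlaps *Mars*, a tRNA synthetase gene with 93.29% as many counts, by 68 bases, and *Mars* changed by 0.21. The second *Ddit3* identifier (ENSMUSG00000116429.1), on the same strand and inside the first over 2925 bases, changed by 0.19 (SE 0.174, adjusted p 0.521) in controls and 0.14 (adjusted p 0.682) in cKO mice after crush and was not called, whereas in cultured neurons it changed by 3.09. *Ppp1r15a* overlaps *Tulp2* by 717 bases. *Tulp2* held 60.57% as many counts and its log2 fold change was 0.11 (adjusted p 0.258). *Eif2ak3* overlaps a gene model with 7.16% as many counts, and for *Atf4*, *Chac1*, *Trib3*, *Nupr1* and *Ddit4* no overlapping gene was annotated. In cultured neurons against naive ganglia several neighbours changed as well, on the log2 scale: *Mars* by 2.43 where *Ddit3* changed by 2.17, *Nup62* by 1.58 and *Il4i1* by 1.47 where *Atf5* changed by 1.16, and *Tulp2* by 1.32 where *Ppp1r15a* changed by 3.06. The part of the shared reads in these results was not tested.

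Sham surgery without nerve crush was compared between the 2 sides of the same mice, over 4 mice. The fits took the 2 sides of a mouse as separate libraries, without a mouse term, as do the SE and p here. None of the 10 genes was called by edgeR, where 0.00451% of the 22160 genes were, and 5 had an unadjusted p under 0.05, as did 7.56% of all genes. Their median log2 fold change was 0.28, against 0.0081 over all genes, and 0.17 without sham cKO 2. *Atf4*, *Ddit3*, *Nupr1*, *Ppp1r15a*, *Chac1* and *Sesn2* were higher on the operated side in 4 of 4 mice, *Trib3* in 3, *Atf5* and *Eif2ak3* in 2 and *Ddit4* in 1. The 5 with the smaller p were *Ddit3*, *Ppp1r15a*, *Chac1*, *Atf4* and *Sesn2*.

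*Ddit3* had the smallest p of the 10. It was at 34.0 and 32.5 CPM on the other side and 39.4 and 40.0 CPM on the operated side in the control mice, and at 32.9 and 31.6 against 37.8 and 42.3 CPM in the cKO mice. The 4 operated values lay above the 4 others, and the log2 fold change was 0.29 (SE 0.055, unadjusted p 0.0009, adjusted p 0.256). *Ppp1r15a* (log2 fold change 0.37, SE 0.080, adjusted p 0.319) and *Chac1* (0.69, SE 0.205, adjusted p 0.499) also had sides without overlap, so that 3 of 10 genes did, where 4.25% of all genes did. *Chac1* varied most between mice: the operated side held 1.77 and 1.29 times the level of the other side in the control mice and 1.06 and 2.53 times in the cKO mice. DESeq2 called *Chac1*, *Ppp1r15a* and *Ddit3*, and edgeR without a filter on low counts called these and *Sesn2*. Over all genes these settings called 0.903% and 1.09%, against the 0.00451% of the filtered edgeR fit. Whether crush and sham differ for these genes was not tested, since they were in different sets of libraries, with all sham mice and 2 of the 6 crushed mice male by transcripts.

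Cultured neurons were compared with whole naive ganglia in control mice by a joint fit of all 26 libraries. Of the 10 genes 9 were higher in the cultures, 7 of them at least 2-fold, among 24101 genes of which 81.4% were called, 40.0% higher and 23.2% at least 2-fold higher. The median log2 fold change of the 10 was 1.89, against -0.04 over all genes. This comparison shares the naive control libraries with the crush comparison, so the values stand side by side and are not independent. The kind of sample, the culture and the set of libraries cannot be told apart.

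*Sesn2* stood at 101, 113 and 109 CPM in the control cultures, where naive ganglia had 8.72 to 9.57 CPM, a log2 fold change of 3.65 (SE 0.193, against 1.01 after crush). *Chac1* changed by 3.83 (SE 0.207, against 2.07 after crush) and *Ppp1r15a*, at 461, 406 and 408 CPM, by 3.06 (SE 0.126, against 0.95). *Trib3* changed by 2.99 (SE 0.135), *Ddit3* by 2.17 (SE 0.097), *Atf4* by 1.61 (SE 0.084), *Atf5* by 1.16 (SE 0.107) and *Eif2ak3* by 0.95 (SE 0.087). None of these 8 genes had overlapping groups, as for 79.9% of all genes. *Nupr1* had a log2 fold change of 0.66 (SE 0.228, adjusted p 0.0115) with overlapping groups, and was not called without naive control 2 (0.41, adjusted p 0.0871). *Ddit4* was at 98.9, 88.7 and 75.0 CPM, within the naive range, with a log2 fold change of -0.0058 (SE 0.201, adjusted p 0.981).

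Cell type markers moved with the same comparison. The summed level of 6 Schwann cell markers was 3844 to 4998 CPM in naive controls and 632 to 744 CPM in control cultures, and that of 8 neuron markers 6105 to 7266 and 3959 to 4802 CPM. For 6 satellite glia markers the sums were 1034 to 1139 and 577 to 651 CPM, for 7 macrophage markers 151 to 198 and 175 to 179.7 CPM, and for 5 endothelial markers 117 to 153 and 1021 to 1453 CPM. Single markers did not always follow the sums. In the cultures 5 of 6 satellite glia markers and 5 of 7 macrophage markers were called lower and the rest higher, with medians of -3.09 and -0.96 on the log2 scale. All 6 Schwann cell markers were called lower and all 5 endothelial markers higher, and of the 8 neuron markers 5 were lower and 3 higher. The sum of 5 fibroblast markers was 629 to 976 CPM in naive controls and 202 to 336 CPM in control cultures, with 4 markers called lower, 1 higher and a median of -1.33. None of these markers was at 0 in either group. After crush the neuron sum in controls was 6097 to 6540 CPM and the satellite glia sum 1255 to 1369 CPM, above the naive range, although of the 6 satellite glia markers 2 were called higher, 1 lower and 3 not, with a median of -0.03. In cKO mice the satellite glia sum was 1047 to 1292 CPM before and 1325 to 1416 CPM after crush, with 1 of the 6 markers called, higher, and a median of 0.015. Also in cKO mice the sum of 4 neutrophil markers was 178 to 344 CPM in naive and 53.4 to 120.0 CPM in crushed ganglia, and that of 3 red cell markers 181 to 289.8 and 77.5 to 203 CPM. In the cultures both sums were below the naive range, at 11.6 to 63.7 and 3.52 to 8.48 CPM in controls. The part of cell composition in these results was not tested.

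Genotype was compared in 5 settings, and the question was whether *Ahr* cKO changed these genes at rest, after injury or in culture. None of the 10 was called by edgeR in any of the 5, and none had an unadjusted p under 0.05. DESeq2 also called none of the 10. Over all genes edgeR called few: 0.00941% of 21261 in naive ganglia, 0.00941% after crush, 0% of 23295 in cultured neurons, 0.00451% of 22160 on the operated and 0% on the other side after sham surgery. In the same order DESeq2 called 0.0141%, 0.00941%, 0.708%, 0.686% and 0.131%. An unadjusted p under 0.05 was found for 5.79%, 2.72%, 8.0%, 7.59% and 5.23% of all genes, again in that order. The differences given next are cKO minus control, and missing the threshold does not show that the genotypes were alike.

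In naive ganglia the log2 fold changes ran from -0.51 (*Nupr1*, SE 0.268, unadjusted p 0.0793) to 0.07 (*Eif2ak3*). The *Nupr1* value rests on single libraries: it was -0.19 without naive control 1 and -0.76 without naive control 2. *Sesn2* was at 8.85, 9.57 and 8.72 CPM in controls and at 7.94, 8.43 and 6.95 CPM in cKO, and was the 1 gene of the 10 whose naive groups did not overlap, where 11.5% of all genes did not. After crush they ran from -0.36 (*Ddit4*, unadjusted p 0.138) to 0.08 (*Ppp1r15a*), and no gene had groups without overlap, where 8.72% of all genes did. With sex from transcripts as a covariate the *Ddit4* value after crush turned to 0.035, and the median of the 10 went from -0.02 to -0.28 with none called. Then *Sesn2* (-0.57, SE 0.123), *Chac1* (-0.49, SE 0.111), *Ppp1r15a* (-0.36) and *Ddit3* (-0.28) had an unadjusted p under 0.05, as did 5.26% of all genes, and the smallest adjusted p of the 10 was 0.901. These values rest on injured cKO 1, the one female library of its group. The test of whether crush acted differently in the 2 genotypes called none of the 10 and 0% of all genes (2.95% had an unadjusted p under 0.05, and none of the 10), with differences from -0.40 (*Ddit4*) to 0.35 (*Nupr1*). Without naive control 1 these 2 were -0.17 and 0.03. The *Ddit4* difference was -0.66 without injured cKO 1, and that of *Nupr1* 0.60 without naive control 2. With the same covariate they ran from -0.53 (*Chac1*) to 0.21 (*Nupr1*), with a median of -0.23 in place of 0.045. None was called (smallest adjusted p 0.975), and *Chac1*, *Ppp1r15a* and *Sesn2* had an unadjusted p under 0.05, as did 4.90% of all genes.

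In cultured neurons the differences had the narrowest range, from -0.15 (*Atf4*) to 0.11 (*Ddit4*). The *Atf4* value was -0.047 without neuron control 1, and that of *Ddit4* 0.0065 without neuron control 3. *Chac1* was at 96.7, 98.7 and 101 CPM in control and 102.5, 104 and 102 CPM in cKO cultures, with no overlap, and *Ppp1r15a* at 461, 406 and 408 against 399.7, 378 and 394 CPM, also with none (log2 fold change -0.12, SE 0.076, unadjusted p 0.150). These 2 of 10 compare with 15.2% of all genes. After sham surgery the range was -0.20 (*Trib3*) to 0.15 (*Nupr1*) on the operated side and -0.18 (*Sesn2*) to 0.43 (*Nupr1*) on the other side, from 2 mice per genotype. With 1 mouse left out, *Trib3* on the operated side went up to 0.010 and *Nupr1* ran from -0.19 to 0.58. On the other side *Sesn2* went up to -0.017, and *Nupr1* stayed at 0.40 to 0.47. *Atf5* had no overlap on the operated side, and *Nupr1* and *Sesn2* had none on the other side, where 33.3% and 39.0% of all genes had none. On the other side *Nupr1* stood at 7.50 and 7.15 CPM in control and 10.1 and 9.72 CPM in cKO mice, opposite in sign to the naive ganglia.

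**Figure D3:**
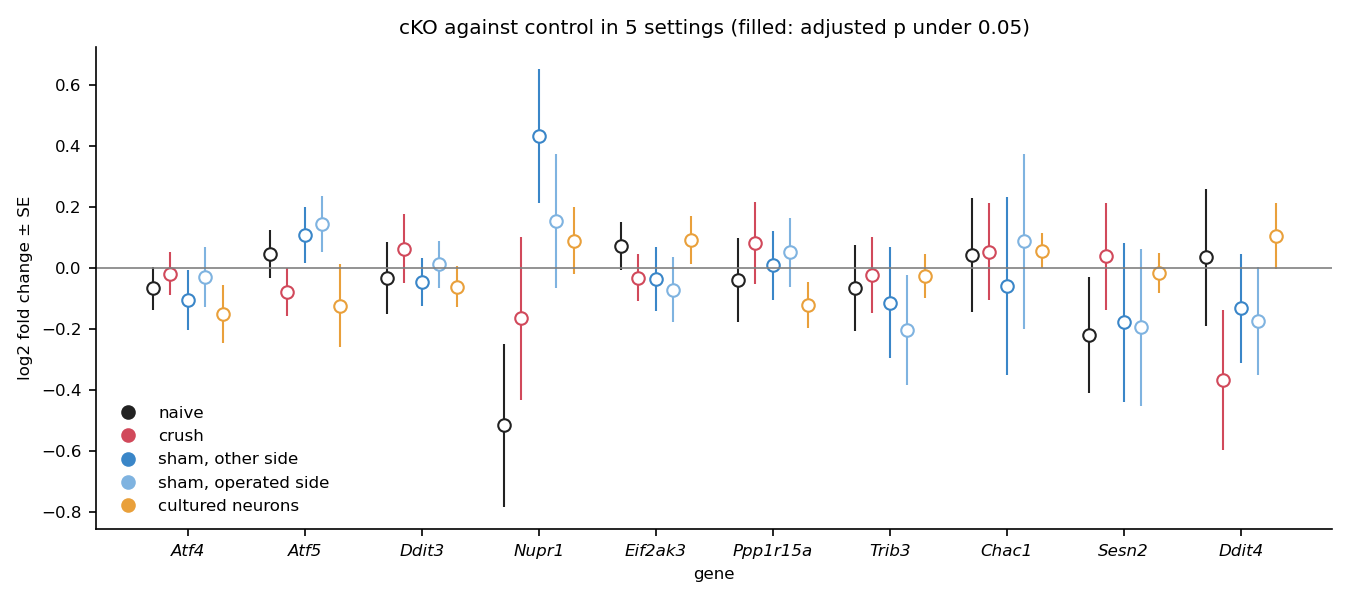
Log2 fold change of cKO against control with its SE for each gene in naive ganglia, crushed ganglia, the 2 sides after sham surgery and cultured neurons, with open points for an adjusted p of 0.05 or more. No point is filled, and *Nupr1* has the widest span, from -0.51 in naive ganglia to 0.43 on the other side after sham surgery, although the first of these was -0.19 without naive control 1.

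Related genes of the pathway were followed as 3 further lists, also chosen with earlier results of these data known. Of 20 tested targets of ATF4 outside the 10, 12 rose after crush in control and 12 in cKO mice and none fell, with medians of 0.47 and 0.43, where 12.9% and 10.7% of all genes were called higher. *Cebpg*, a partner of ATF4, rose by 0.53 (SE 0.065) in control and 0.41 (SE 0.065) in cKO mice. The largest changes were those of *Atf3*, a transcription factor of the injury response (5.64 and 5.60), and *Gadd45a*, a stress gene of the growth arrest family (3.24 and 3.26).

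Of 14 genes of the IRE1 and ATF6 branches, 11 rose in control and 7 in cKO mice after crush and none fell, with medians of 0.37 and 0.25, against the same 12.9% and 10.7% of all genes called higher. *Hspa5*, the chaperone BiP, rose by 0.74 (SE 0.081) and 0.62 (SE 0.081), *Dnajb9*, its co-chaperone, by 0.39 and 0.42, and *Sdf2l1* by 0.60 and 0.44. Of 13 matched genes for eIF2 kinases and the translation machinery around them, 4 rose in each genotype and none fell, with medians of 0.11 and 0.16. This count is the nearest of the 3 to the 12.9% and 10.7% of all genes. *Eif2ak2*, the kinase PKR, rose by 0.39 and 0.45, *Ppp1r15b*, whose product CReP brings the same phosphatase to eIF2 without need of stress, by 0.37 and 0.23, and *Impact*, an inhibitor of the kinase GCN2, by 0.34 and 0.24. With transcript sex as a covariate the calls in cKO mice went to 3 of 20, 3 of 14 and 2 of 13, where those over all genes went from 18.6% to 6.65%, with medians of 0.15, 0.25 and 0.14. *Atf3* (5.30), *Gadd45a* (3.02) and *Cebpg* (0.52) were the 3 targets that were still called, and *Impact* (0.33, SE 0.10, adjusted p 0.0794) and *Sdf2l1* (0.43, SE 0.116, adjusted p 0.0507) lost their calls. Without the covariate these 2 values were 0.24 (SE 0.075) and 0.44 (SE 0.082). In cultured neurons 22 of 22, 12 of 14 and 13 of 13 genes of the 3 lists were called higher, with medians of 2.18, 0.94 and 0.92, where 40.0% of all genes were called higher. No gene of the 3 lists was called by edgeR between genotypes or between the sides after sham surgery. On the operated side *Atf3* was at 107 ± 58.9 CPM and on the other side at 11.4 ± 0.92 CPM (SD, n = 4 mice), a log2 fold change of 3.23 (SE 0.424, edgeR adjusted p 0.147), and that of *Gadd45a* was 1.28 (SE 0.233, edgeR adjusted p 0.247). Both were called by DESeq2, by edgeR without a filter on low counts and by edgeR without sham cKO 1 (adjusted p 0.0199 for each). *Eif2ak2* was called by the first 2 of these, at a log2 fold change of 0.34 (DESeq2) and 0.33. Between genotypes *Eif2s3x*, an X-linked subunit of eIF2, was called after crush without injured cKO 1 (-0.75, edgeR adjusted p 0.00254), when the cKO libraries left were both male by transcripts.

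**Figure D4:**
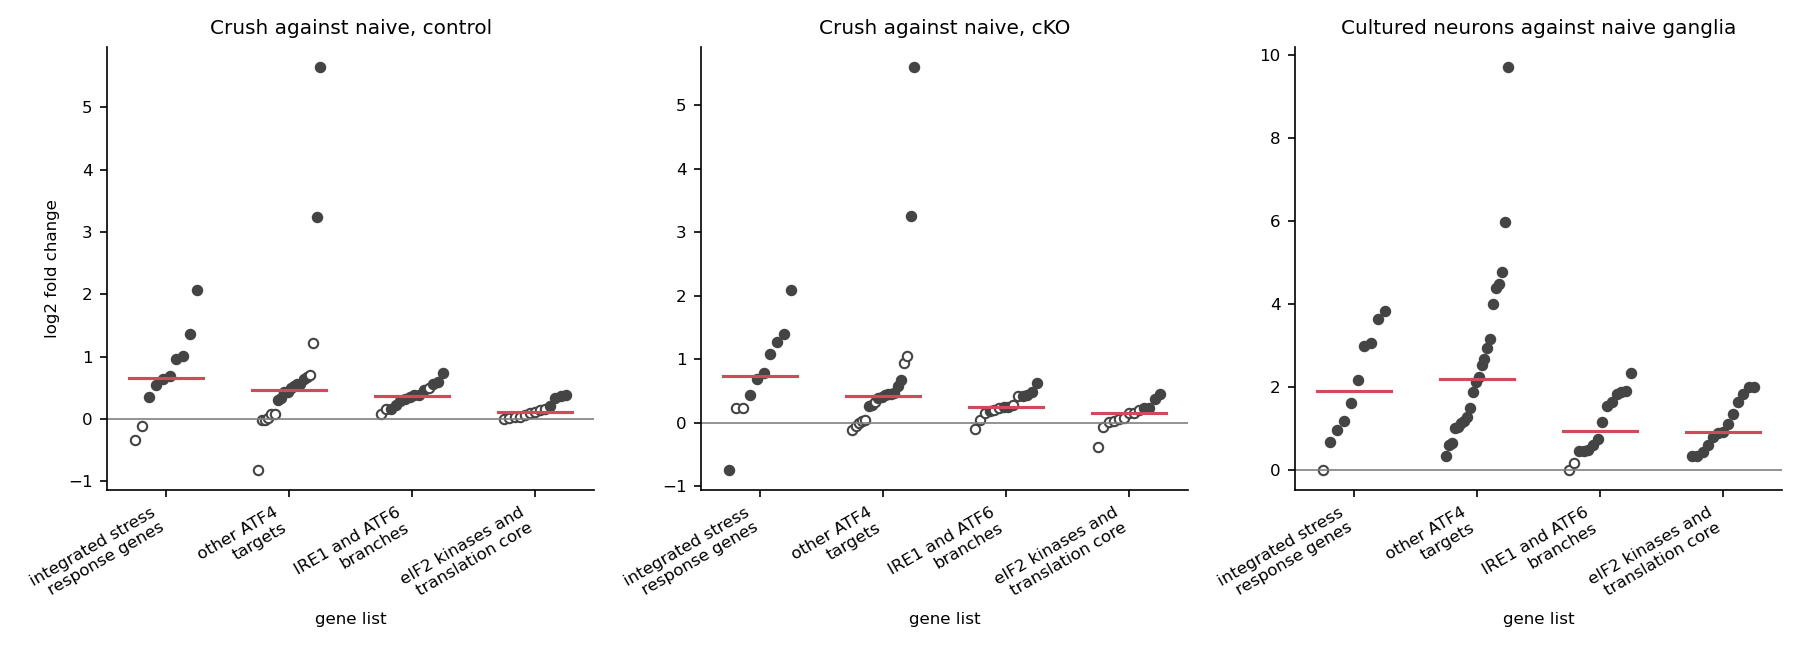
Log2 fold change of each tested gene (points, filled for an adjusted p under 0.05) in the 10 integrated stress response genes and 3 related lists, with the list's median as a red line, for crush in control, crush in cKO and cultured control neurons against naive ganglia. The medians after crush in controls are 0.66, 0.47, 0.37 and 0.11, and the highest point there is *Atf3* at 5.64.

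The genes most like 3 of the transcription factors were found by the root mean square difference of their centred log2 group means over the 10 groups, among 14435 genes with a mean of at least 1 CPM over all libraries and a named symbol. For *Ddit3* they were *Mthfd2*, an enzyme of mitochondrial folate metabolism (0.043), *Fam129b* (0.045) and *Triobp* (0.092), where the median over all genes was 0.789. For *Atf4* they were *Hspa5* (0.080), *Sipa1l2* (0.086) and *Ndst1* (0.090, median 0.688), and for *Atf5* *Slc35f5* (0.057), *Rnf44* (0.064) and *Ubxn4* (0.067, median 0.513). With the libraries scaled together, *Ubxn4* was no longer among the 3 of *Atf5*, and the other 8 genes were the same. The groups share libraries of the same sets, so these values describe likeness across 10 means and carry no p.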

How the data were processed

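Per the labels' protocols, the 26 libraries were made with the TruSeq Stranded mRNA kit. Trim Galore, HISAT2, featureCounts and mm10 are named, without versions, in the submitters' processing notes, and the strand setting is not given in the sources used here. The authors deposited whole-number counts per gene, without normalization. The deposited FPKM equal each count divided by the gene's span with introns and by the library total: this held within 0.1% for 99.12% of the genes with at least 1000 counts. They were used only to set levels of genes side by side.

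The 55401 genes were matched by Ensembl identifier to GENCODE M21 (GRCm38), and 55141 (99.53%) had a symbol. The 12 naive and injured, the 6 neuron and the 8 sham libraries were fitted separately with edgeR 4.0.16 in R 4.3.3 (filterByExpr with minimum count 10 and minimum total 15, TMM, 1 mean per group, quasi-likelihood F test, two-sided), and all 26 together for neurons against naive ganglia. P-values were adjusted by Benjamini-Hochberg over all genes of a comparison, with a threshold of 0.05. The SE is the log2 fold change over the square root of F. CPM were scaled within each set. The script was tested on simulated data.

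The members and gene lists were chosen with earlier results of these data known. By rule, the genes named outside the members are the 3 of each list with the smallest p after crush in controls, the 3 of most alike pattern (log2 of CPM plus 0.5), and *Ahr* and *Thy1*. The neighbours were named because they overlap members. *Eif2s3x*, *Gdf15*, *Fgf21*, *Per1*, *Tsc22d3* and *Sgk1* were chosen after values were seen. Replicates are separate mice or cultures per the labels. The 2 sides of a sham mouse come from 1 animal, and their deviations from the group means correlated at 0.296 in control and -0.205 in cKO mice. Alternatives were DESeq2 1.42.0, RLE factors, no filter, at least 10 counts in every library, a replicate block, sex as a covariate, only the groups compared, and leaving out each library. In the sham set each mouse was left out with both its sides. The crossed pairing of sham mice, omission of the 2 libraries against their labelled sex, and female libraries alone were added after seeing the data.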

Additional observations from a re-analysis of the deposited data

How the results depend on the processing

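The number of the 10 genes called kept within 1.5 times its value in 135 alternatives. The 2 exceptions were the sides after sham surgery, with 0 calls in edgeR, 3 with DESeq2 and 4 without a filter on low counts, where the calls over all genes went from 1 to 200 and 381. For the 5 genotype settings and the interaction this says only that 0 stayed 0, where edgeR called 0% to 0.00941% of all genes. Where genes were called, the alternatives gave 8 calls after crush in controls, 6 to 8 in cKO mice and 8 to 9 for neurons against naive ganglia. Leaving out 1 library at a time gave 8 calls after crush in controls, 7 to 8 in cKO mice and 8 to 9 for neurons against naive ganglia. Of 440 single gene values in these 3 comparisons, 421 kept their direction and their side of the threshold, 12 lost their call, 1 gained one (*Atf5* in cKO mice after crush without naive cKO 2, 0.30, adjusted p 0.0181) and 6 turned sign.

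*Nupr1* after crush in controls ran from -0.37 to 0.21 when 1 library was left out. *Ddit4* in neurons against naive ganglia was 0.011 without a filter and 0.035 with a replicate block, and ran from -0.22 to 0.17 when 1 library was left out. For *Ddit4*, cKO against control after crush was 0.035 with transcript sex as a covariate and 0.041 in the libraries read as female, where the difference of the crush response between genotypes was 0.0024. None of these values passed the threshold. Of the 60 differences between genotypes (10 genes in 5 settings, and their crush response), 35 changed sign when some 1 library, or 1 sham mouse with both its sides, was left out. None was called.

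Replicate numbers did not pair the naive, injured and neuron libraries: same-numbered samples correlated at -0.584 to 0.536. With the replicate block, 8 genes were called after crush in controls, 7 in cKO mice (*Ddit4* was lost, adjusted p 0.0709) and 9 for the neurons. The mouse as a replicate block in the sham fit, and the crossed pairing added after seeing the data, called 0. With 2 to 3 libraries a group the SE limits what can be seen between genotypes, as for *Nupr1* in naive ganglia (SE 0.268) and *Chac1* on the other side after sham surgery (SE 0.292).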

Other observations

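*Gdf15*, which encodes a circulating stress signal and is a target of ATF4 and CHOP, was nearly absent from ganglia and abundant in cultured neurons. It had 2 to 6 counts per library in naive ganglia of both genotypes and 0 to 18 after crush, too few to be tested there. In the cultures it was at 226, 164 and 143 CPM in control and 174, 221 and 186 CPM in cKO libraries. *Fgf21*, another secreted target, was at 0.162, 0.615 and 0.997 CPM in control and 1.74, 2.83 and 1.29 CPM in cKO libraries. For *Fgf21* every cKO library was above every control library, where 15.2% of all genes had groups without overlap. Its control libraries held only 4, 55 and 60 counts, the first of them in the smallest culture library. With edgeR 0% of all genes were called between genotypes in the cultures. Both genes were chosen after values were seen.

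*Ddit4* spread more within the naive controls (30.1% coefficient of variation) than 8 of the other genes described (4.65% to 9.49%), and less than *Nupr1* (39.7%). *Per1*, *Tsc22d3* and *Sgk1*, genes that respond to glucocorticoids as *Ddit4* does, were looked at after the values of *Ddit4* were seen. Naive control 1, the lowest for *Ddit4* at 60.5 CPM, was also the lowest of its group for *Per1* (10.02 against 21.4 and 29.8 CPM), *Tsc22d3* (185 against 239.8 and 263 CPM) and *Sgk1* (19.0 against 26.01 and 39.5 CPM). Naive cKO 1 was likewise the lowest of its group for all 4 genes, at 77.4 CPM for *Ddit4* and 12.4 CPM for *Per1*. In the crushed cKO ganglia, the 2 libraries lowest for *Ddit4*, both male by transcripts, were also the lowest for *Tsc22d3* (158 and 171 against 219.9 CPM) and *Sgk1* (17.7 and 15.8 against 24.2 CPM). *Per1* did not follow there: these 2 libraries had 35.4 and 33.0 CPM, where the third had 33.9. In crushed controls the genes did not share their lowest library. It was injured control 1 for *Ddit4* (68.7 CPM), 2 for *Tsc22d3* (211) and 3 for *Per1* (35.7) and *Sgk1* (22.2). Neuron control 3 was the lowest of its group for *Ddit4* (75.0 CPM) and the highest for *Tsc22d3* (64.5 CPM). The part of glucocorticoids in these values was not tested.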
